A study of Mus musculus with 9 samples.

Results

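Autophagy and organelle removal genes were followed in embryonic mouse lenses with 1 or both of Mafg and Mafk, DNA-binding proteins of the small Maf family, knocked out. The genes were Map1lc3a, Map1lc3b, Gabarap, Gabarapl1, Sqstm1, Bnip3l, Atg5, Atg7, Becn1 and Pik3c3, and they were taken by gene symbol, whatever their values, as 10 of the 15820 entries of the expression table that carry a symbol. Lens RNA was sequenced at E16.5 (embryonic day) from control (Mafg+/-:Mafk+/-), compound KO (Mafg-/-:Mafk+/-) and double KO (Mafg-/-:Mafk-/-) embryos, with 3 libraries per genotype and the RNA of 8 lenses pooled in each library. The controls are not wild type, since they carry 1 germline knockout allele of each gene. The compound KO keeps 1 functional Mafk allele. The knockouts are germline and therefore not limited to the lens, and the mice were maintained on an ICR background. Expression is given as normalized CPM. From the library totals, it was read as the authors' CPM (reads per library scaled to a common total) multiplied by 1 factor per library.

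Autophagy encloses cytoplasm and organelles in a double membrane, the autophagosome, and delivers them to the lysosome. A membrane lipid made by the Pik3c3 kinase complex starts the membrane, the Atg5 and Atg7 conjugation system attaches ATG8 proteins (the LC3 and GABARAP families) to it, and receptors such as Sqstm1 and Bnip3l tie cargo to the ATG8 proteins. Lens fiber cells lose their nuclei, mitochondria and endoplasmic reticulum as they mature, and Bnip3l is known for its part in the removal of mitochondria there. Small Maf proteins bind DNA with partners such as Nrf2, and Sqstm1 is a known Nrf2 target gene in other cells.

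Promoters were read because small Maf dimers bind a known sequence, the antioxidant response element, whose core is TGACNNNGC. RefSeq promoter sequences (assembly GRCm38.p6, 250 bases before to 50 bases after a start) were matched for 6 of the 10 genes, namely Map1lc3b, Gabarap, Gabarapl1, Sqstm1, Atg5 and Atg7. Map1lc3a, Bnip3l, Becn1 and Pik3c3 were not matched. The sequences of Map1lc3b and Gabarapl1, the genes with the smallest unadjusted p against control, and of Sqstm1 are shown 5′ to 3′ on the strand of the gene, with the core motif in capitals where it occurs. The printed stretches hold the 250 bases before the start, and for Map1lc3b also 25 bases after it. They lie at chr8:121590188-121590462 (plus strand), chr6:129532942-129533191 (plus strand) and chr11:50210821-50211070 (minus strand).
Map1lc3b: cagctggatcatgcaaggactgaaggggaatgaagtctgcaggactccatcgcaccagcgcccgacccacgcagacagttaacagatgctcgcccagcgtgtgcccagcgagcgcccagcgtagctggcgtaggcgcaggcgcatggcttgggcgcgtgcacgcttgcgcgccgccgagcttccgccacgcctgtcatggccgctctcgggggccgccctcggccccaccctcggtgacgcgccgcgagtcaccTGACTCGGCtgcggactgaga
Gabarapl1: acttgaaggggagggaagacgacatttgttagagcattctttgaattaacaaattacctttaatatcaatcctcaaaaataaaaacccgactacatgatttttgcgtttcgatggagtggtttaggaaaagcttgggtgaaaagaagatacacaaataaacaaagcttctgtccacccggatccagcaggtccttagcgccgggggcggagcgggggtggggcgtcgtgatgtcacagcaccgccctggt
Sqstm1: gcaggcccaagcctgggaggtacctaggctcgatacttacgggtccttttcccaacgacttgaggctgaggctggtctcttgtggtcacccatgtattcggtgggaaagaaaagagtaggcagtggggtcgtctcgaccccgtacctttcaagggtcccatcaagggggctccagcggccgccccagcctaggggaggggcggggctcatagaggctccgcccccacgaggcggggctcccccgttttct
On either strand, the core was found in 1 of the 6 promoters, that of Map1lc3b, at bases 255 to 263 of the window and thus just downstream of the start. It occurs in 12.4% of the 32851 RefSeq promoters of the same length. The E-box CACGTG was found in 2 of the 6, Atg7 and Atg5, against 7.15% of all promoters, and the listed Atg7 start lies inside the gene. The AP-1 site TGANTCA, which can share bases with the core, was found in none of the 6 and in 7.81% of all promoters. These matches describe the letters of the windows and were not tested for binding. Sites outside the windows were not searched.

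The genotype labels were checked on the targeted genes. Mafg was at 112.9, 120.7 and 134.5 normalized CPM in the control libraries, at 10.1, 21.0 and 24.1 in the compound KO and at 24.6, 21.2 and 26.2 in the double KO. Mafk was at 5.2 to 6.3 in control, 4.3 to 5.3 in compound KO and 0.0 to 0.6 in double KO libraries. The order of these values matched the labels in all 9 libraries. Compound KO replicate 1 stood apart, with a table total of 728036 against 977149 to 1131184 in the others. Its summed level of 11 lens fiber markers was 38552 normalized CPM against 75857 to 124707 in the others, while 11 mesenchyme markers summed to 2318.5 against 179.4 to 364.6 and 7 retinal pigment epithelium markers to 736.0 against 4.1 to 36.2. Col1a1 (1173.6) and Col3a1 (660.5) made up most of this mesenchyme sum. Of the other mesenchyme markers, Pdgfra went the other way, at 72.0 against 123.2 to 173.4, and Col1a2 (33.7) lay within the range of the others (3.7 to 54.0). The 10 neural retina markers summed to 1205.6, 300.9 and 120.1 in compound KO replicates 1, 2 and 3. They summed to 35.4 to 104.3 in control and 39.7 to 170.5 in double KO, so high values were not confined to replicate 1. The 8 lens epithelium markers summed to 698.7 in replicate 1 against 851.5 to 990.3 in the others, though Pax6 (162.7) and Gja1 (219.7) were highest there. The listed fiber markers found in the table were all at 1 or more in at least 1 library. Bulk RNA values cannot tell fewer cells of a type from less RNA per cell. Results that rest on compound KO replicate 1 are given with and without it, or with the range on leaving out a library.

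All 10 genes were expressed in the control lens, at levels that spanned a wide range. Divided by the length of the canonical GENCODE transcript, the mean control level was highest for the mitophagy receptor Bnip3l, at 78.6 ± 5.71 normalized CPM per kb (SD, n = 3). Map1lc3b (68.9 ± 6.46), Gabarapl1 (67.9 ± 3.49) and Gabarap (63.3 ± 8.59) followed, and each neighbour in this order overlapped the next over the control libraries. Sqstm1 (31.5 ± 3.89) came next without overlap, followed by Becn1 (18.7 ± 3.0) and Map1lc3a (15.6 ± 0.677), which overlapped each other. Atg5 (6.26 ± 0.717), Pik3c3 (4.57 ± 0.247) and Atg7 (1.61 ± 1.96) were lowest, with no overlap between neighbours. The RNA of the ATG8 genes and the receptors was thus listed at higher levels per length than that of Atg5 and Atg7 of the conjugation step and of the lipid kinase Pik3c3. Protein levels were not measured. The Atg7 mean came from unequal control libraries, at 1.7, 1.9 and 14.6 normalized CPM before division by length. An entry without a symbol, described below, was at 12.9, 15.2 and 0.1 there and is not counted in this level. What it represents was not tested.

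**Figure D1:**
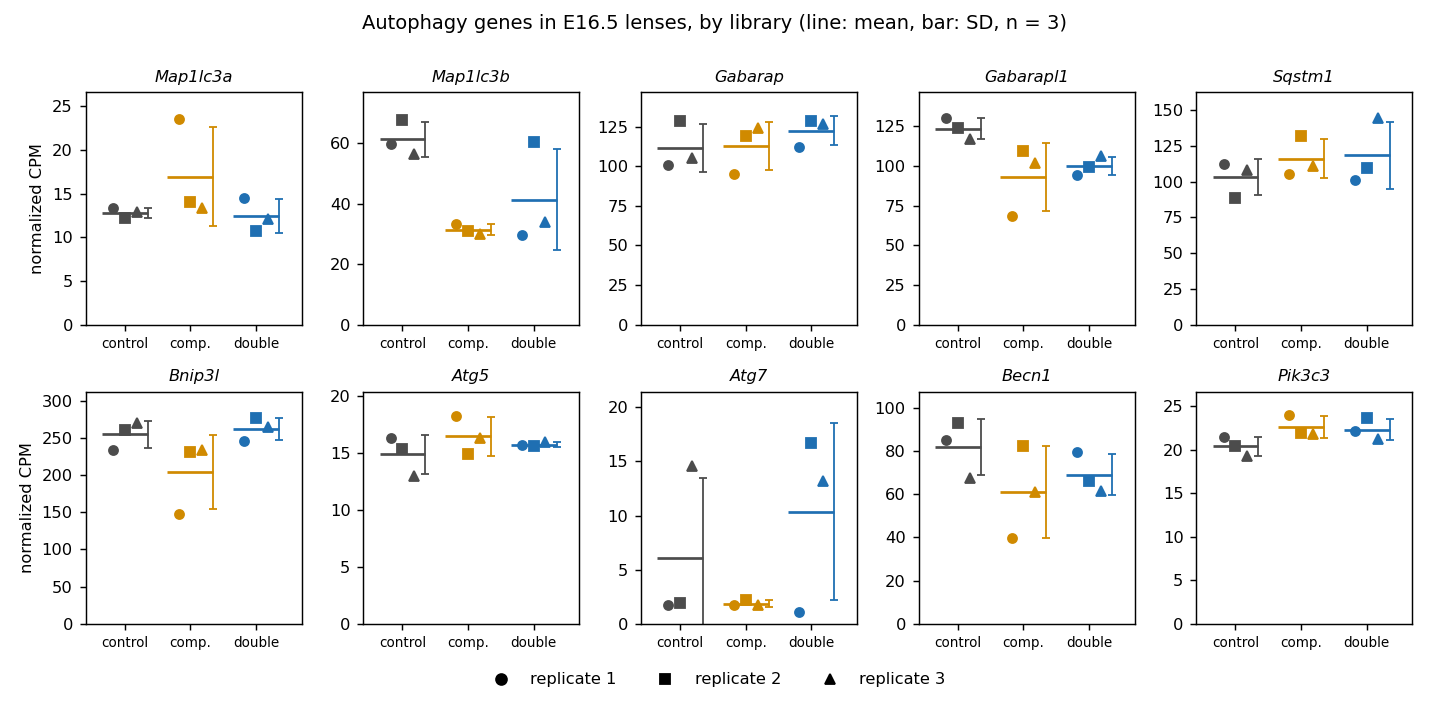
Normalized CPM (vertical axes, from 0) of the 10 genes in each control, compound KO and double KO library. Symbols give the replicate, lines the group mean and bars the SD of 3 libraries (bars that would pass below 0 end at the axis). Map1lc3b is lower in every compound KO library (29.8 to 33.4) than in any control library (56.4 to 67.6), and Atg7 is at 13.2 to 16.7 in 3 libraries and at 1.1 to 2.2 in the other 6.

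No gene of the set passed the adjusted test in any comparison of genotypes. Genes were called by limma on log2(normalized CPM + 1) at a Benjamini-Hochberg adjusted p of at most 0.05 over all genes tested and a change of at least 1.5-fold, and all log2 fold changes are on that scale. Between double KO and control, 0 of the 10 genes were called, against 0.361% of the 14122 genes tested, and 0 of 10 passed at 1.5-fold when p of at most 0.05 was taken without adjustment, against 2.83%. With no fold threshold 1 of 10 passed at an unadjusted p, Gabarapl1, against 9.97% of all genes. The groups did not overlap for 1 of 10, again Gabarapl1, against 15.8%. The median log2 fold change of the 10 genes was 0.06, and that of all genes tested was 0.01. Of the 10 genes, 4 had a lower fitted value in the double KO, against 47.2% of all genes.

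Between compound KO and control, 0 of 10 were called at an adjusted p, where the same test called 0% of the 14348 genes tested. At an unadjusted p and 1.5-fold, 1 of 10 passed, Map1lc3b, against 5.34% of all genes. With no fold threshold it was again 1 of 10, against 9.3%. The groups did not overlap for 3 of 10, Map1lc3b, Gabarapl1 and Pik3c3, against 23.9%. The median log2 fold change of the 10 genes was −0.17, beside 0.02 for all genes, and 5 of 10 had a lower fitted value, against 48.0%. On leaving out any 1 library, this median ran from −0.26 to 0.0034. Between double KO and compound KO, 0 of 10 were called at an adjusted p, against 0.0139% of 14402 genes, and 0 of 10 at an unadjusted p and 1.5-fold, against 3.06%. With no fold threshold 0 of 10 passed, against 4.87%. There the groups did not overlap for 1 of 10, Bnip3l, against 15.6%, and 3 of 10 had a lower fitted value, against 50.8%. The median was 0.13 beside −0.01 for all genes, and 0.012 to 0.21 on leaving out any 1 library. The comparisons share libraries and are therefore not independent of each other. Each of the shares stands on few genes, and none of them was tested against the background.

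**Figure D2:**
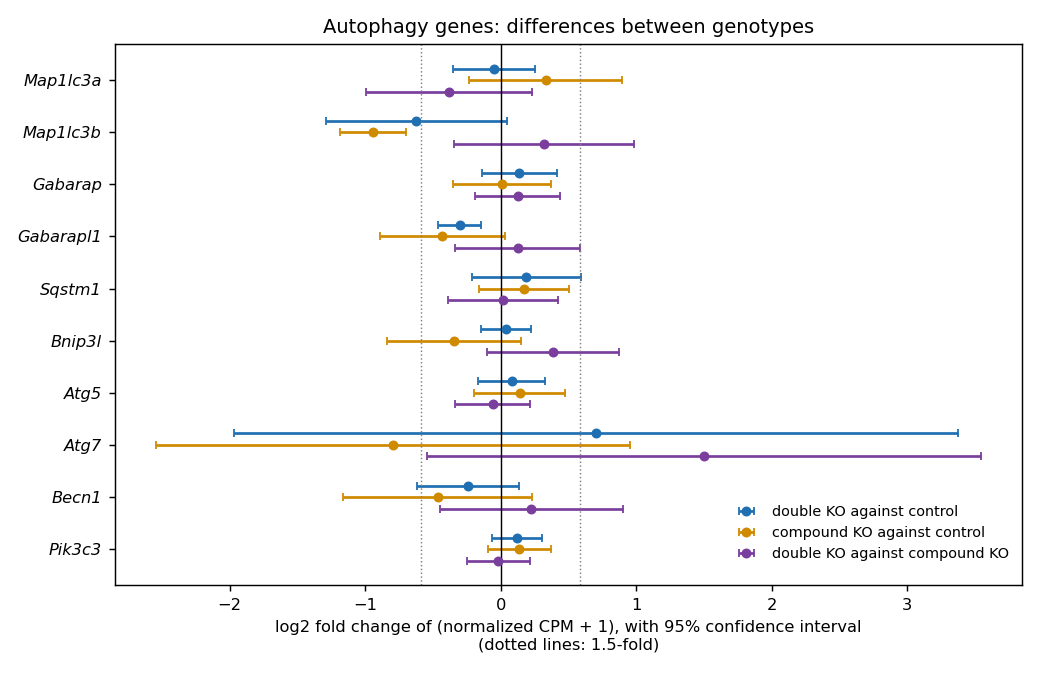
Log2 fold change of normalized CPM + 1 (horizontal axis) with its 95% confidence interval from limma for each of the 10 genes (vertical axis) in the 3 comparisons, with dotted lines at 1.5-fold. The interval of Map1lc3b in compound KO against control (−1.18 to −0.70) lies wholly below the 1.5-fold line, and that of Atg7 in double KO against control (−1.97 to 3.38) is the widest in that comparison.

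Map1lc3b encodes LC3B, the ATG8 protein most used to mark autophagosomes, and had the largest difference from control of the ATG8 genes. It lies on chromosome 8 from 122317100 to 122325499 (GRCm39, plus strand). Its normalized CPM was 59.8, 67.6 and 56.4 in control, 33.4, 31.0 and 29.8 in compound KO and 29.6, 60.3 and 34.0 in double KO libraries. The values fell on 2 levels: all compound KO libraries and double KO replicates 1 and 3 were low, while all controls and double KO replicate 2 were high. Compound KO lenses were therefore lower than controls without overlap, by a log2 fold change of −0.94 (SE 0.099, 95% interval −1.18 to −0.70), with an unadjusted p of 0.000102 and an adjusted p of 0.154 by limma. Leaving out compound KO replicate 1 gave −0.98, with an adjusted p of 0.0788. Over all alternatives the adjusted p ran from 0.0788 to 0.481. In double KO against control the log2 fold change was −0.62 (SE 0.269, 95% interval −1.29 to 0.045, adjusted p 0.536 by limma), and the groups overlapped because of double KO replicate 2. Without that replicate it was −0.92, with an unadjusted p of 0.00054 and an adjusted p of 0.0990.

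The low libraries of Map1lc3b were the libraries in which other entries of the table, which carry no symbol, were high. Of 6193 such entries, the one whose course was most opposed to that of Map1lc3b (lowest Pearson r, −0.968 over the 9 libraries) was at 0.0 in every control library and in double KO replicate 2. It was at 43.4, 47.0 and 48.0 in compound KO and at 36.1 and 43.3 in double KO replicates 1 and 3. Summed with that entry, Map1lc3b ran from 56.4 to 78.0 over the 9 libraries, and the log2 fold changes became 0.14 (double KO against control) and 0.34 (compound KO against control). The entry next in this order (r of −0.966) was at 3.4 to 5.1 in the high libraries and at 22.6 to 34.1 in the low libraries, and the sum with it ran from 56.0 to 71.8. In all, 7 of the 6193 entries had an r of −0.9 or lower. These entries were picked for their opposite course, 9 libraries allow many such matches, and what they represent was not tested: the lower Map1lc3b value is that of 1 entry, in a table made from transcript-level counts of a gene with 18 annotated GENCODE transcripts.

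Gabarapl1, an ATG8 protein of the GABARAP family, was the gene with the smallest unadjusted p between double KO and control. It lies on chromosome 6 from 129509725 to 129520544 (GRCm39, plus strand). Its normalized CPM was 129.9, 123.6 and 117.2 in control, 68.7, 109.1 and 101.8 in compound KO and 94.4, 99.3 and 106.2 in double KO libraries. Every control library was above all 6 knockout libraries. Against control, the log2 fold change was −0.30 in double KO (SE 0.065, 95% interval −0.46 to −0.14, adjusted p 0.231), and its interval did not reach a 1.5-fold change. In compound KO it was −0.43 (SE 0.185, adjusted p 0.481), and −0.23 without replicate 1 of that group. The differences therefore did not pass the adjusted test by limma.

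For the other ATG8 genes, the ranges of the genotypes overlapped. Gabarap, the founding member of its family, was at 100.6, 128.9 and 105.4 in control, 95.3, 119.1 and 123.9 in compound KO and 112.1, 128.3 and 127.0 in double KO. The double KO interval against control was −0.14 to 0.41 on the log2 scale. Map1lc3a (LC3A) was at 13.3, 12.2 and 12.9 in control, 23.5, 14.0 and 13.3 in compound KO and 14.5, 10.7 and 12.1 in double KO. Compound KO replicate 1, the library that stood apart, alone held the high Map1lc3a value. Without it the compound KO log2 fold change of 0.33 became 0.09. Gabarapl2, the other ATG8 gene listed, was at 43.5 to 48.8 in all libraries, with a log2 fold change of −0.04 in double KO and −0.06 in compound KO against control.

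Sqstm1 (p62), which links ubiquitin-tagged cargo to ATG8 proteins and is itself degraded by autophagy, is the gene among these best known as an Nrf2 target. It lies on chromosome 11 from 50089572 to 50107684 (GRCm39, minus strand). Its normalized CPM was 112.3, 88.5 and 108.1 in control, 105.5, 131.7 and 111.0 in compound KO and 100.8, 109.5 and 144.7 in double KO libraries. The ranges overlapped, and the highest single value was in double KO replicate 3. The log2 fold change against control was 0.19 in double KO (SE 0.162, 95% interval −0.21 to 0.59, adjusted p 0.768 by limma) and 0.17 in compound KO (95% interval −0.16 to 0.50). As ratios the intervals ran from 0.862 to 1.51 and from 0.897 to 1.42, so a rise beyond 1.51-fold in the double KO lies outside the interval. A p above the threshold does not show that the levels are the same. The entries whose course over the 9 libraries was most like that of Sqstm1 were Rabggtb, Uchl5 and Trim23, with mean absolute differences in log2 value, each gene centred on its mean, of 0.0777, 0.0853 and 0.0905 against a median of 0.222 over 8150 entries.

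Bnip3l (Nix), the receptor that marks mitochondria for removal, had the highest mean control level of these genes per length. Its control range overlapped that of Map1lc3b. It lies on chromosome 14 from 67222678 to 67246356 (GRCm39, minus strand). Its normalized CPM was 234.3, 261.2 and 269.8 in control, 147.5, 231.6 and 234.4 in compound KO and 245.9, 276.6 and 264.5 in double KO libraries. The double KO and control ranges overlapped, with a log2 fold change of 0.04 (SE 0.074, 95% interval −0.14 to 0.22). Against compound KO the double KO was higher without overlap, by 0.39 (95% interval −0.10 to 0.88, adjusted p 0.665 by limma). That difference was 0.17 without compound KO replicate 1, which held the lowest Bnip3l value and the lowest fiber marker sum. Its part in the result was not otherwise tested. Fez2, Vamp1 and Gm10480 were the entries most like Bnip3l (mean absolute differences of 0.0421, 0.0410 and 0.0312 against a median of 0.215 over 8150 entries).

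Atg7 and Atg5 act in the attachment of ATG8 proteins to membrane, Atg7 as the activating enzyme and Atg5 as part of the ligase complex. Atg5 was at 16.3, 15.4 and 13.0 normalized CPM in control, 18.3, 14.9 and 16.3 in compound KO and 15.7, 15.6 and 16.0 in double KO. The ranges overlapped in all comparisons. Atg7 (chromosome 6, 114620044 to 114837576, GRCm39, plus strand) was at 1.7, 1.9 and 14.6 in control, at 1.7, 2.2 and 1.7 in compound KO and at 1.1, 16.7 and 13.2 in double KO. It was thus on a high level in control replicate 3 and double KO replicates 2 and 3, and on a low level in the other 6 libraries. This split did not follow the genotype: each of control and double KO held libraries of both levels. The double KO against control log2 fold change was 0.70 (SE 1.08, 95% interval −1.97 to 3.38), and the interval covers a 1.5-fold change in either direction.

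Rab7, which brings autophagosomes to the lysosome, was higher in the same 3 libraries. Its normalized CPM was 71.0, 69.2 and 107.5 in control, 72.9, 70.1 and 68.4 in compound KO and 66.4, 108.6 and 107.6 in double KO. Rab7 and Atg7 lie on the same chromosome, 26.6 Mb apart. The symbol-less entry most opposed to Atg7 (r of −0.981) was at 0.0 to 0.1 in these libraries and at 12.9 to 17.2 in the other 6, and its sum with Atg7 ran from 13.2 to 18.3 over all 9. As for Map1lc3b, the entry was found by its opposite course, and what it represents was not tested.

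**Figure D3:**
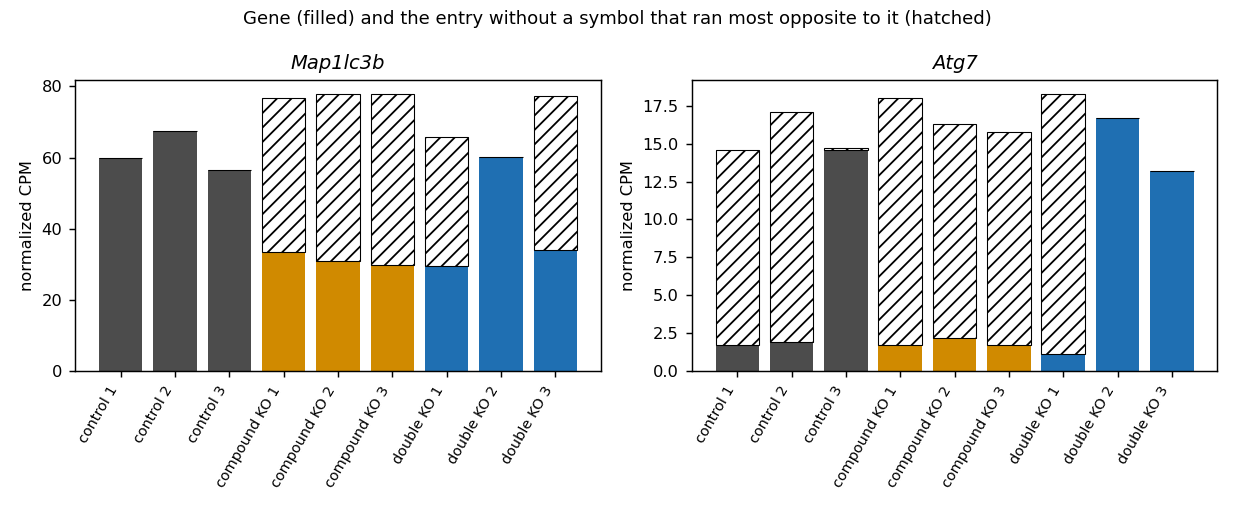
Stacked normalized CPM by library of Map1lc3b and Atg7 (filled, coloured by genotype) and of the symbol-less entry most opposed to each (hatched). Each entry was picked for its opposite course. The sum ran from 56.4 to 78.0 for Map1lc3b and from 13.2 to 18.3 for Atg7. For Map1lc3b it was higher in every compound KO library (76.8 to 78.0) than in any control library (56.4 to 67.6).

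The lipid kinase complex holds Pik3c3 (Vps34), its catalytic subunit, and Becn1 (Beclin 1), its regulatory subunit. Pik3c3 was at 21.5, 20.4 and 19.3 in control, 24.0, 21.9 and 21.8 in compound KO and 22.1, 23.6 and 21.2 in double KO. Every compound KO library was above every control library, but by a log2 fold change of 0.14 only (95% interval −0.09 to 0.37). Becn1 was at 85.2, 93.0 and 67.4 in control, 39.8, 82.2 and 61.0 in compound KO and 79.6, 65.9 and 61.4 in double KO. The lowest Becn1 value was in compound KO replicate 1, the ranges overlapped in all comparisons, and the log2 fold change against control was −0.24 (95% interval −0.62 to 0.14) in double KO and −0.47 in compound KO, or −0.19 without that library.

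Within the set, the spread between libraries of 1 genotype was largest for Atg7. With Atg7 left out because its mean was under 10, none of the other 9 genes varied by 2-fold or more among the controls, Becn1 did so in the compound KO and Map1lc3b in the double KO. Over all genes with a mean of at least 10, 11.4%, 19.4% and 11.1% varied by 2-fold or more within control, compound KO and double KO.

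Other genes of the pathway were taken from lists of 12 steps and organelle processes. Of 100 further genes listed, 93 were in the table, and all 93 were tested in the comparisons against control. Between double KO and control, 1 of 93 was called at an adjusted p, lower in the double KO. It was Cdk1, a cyclin-dependent kinase best known for cell division that has been tied to organelle breakdown in the lens. At an unadjusted p and 1.5-fold, 4 of 93 were lower (Cdk1, Alox15, Optn and Wdfy3) and 0 higher, against 1.24% lower and 1.59% higher over all genes. The median log2 fold change over the 93 was −0.03, beside 0.01. Cdk1, Alox15 and Wdfy3 are also in the study's own list drawn from these libraries, so their direction is not independent evidence.

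By step, and with the 10 genes counted in their lists, the genes past the unadjusted rule in double KO against control were 2 of 8 cargo receptors (Optn and Wdfy3) and 2 of 10 lens organelle breakdown genes (Cdk1 and Alox15). None passed among the 5 ATG8 genes, the 5 genes of the ULK1 complex that starts autophagy, the 7 of the lipid kinase complexes, the 7 of the ATG9, ATG2 and WIPI group that supplies and shapes membrane, and the 11 of ATG8 conjugation. None passed either among the 7 mitophagy genes, the 5 receptors for endoplasmic reticulum, the 12 genes of fusion with the lysosome, the 20 lysosomal genes and the 6 transcriptional regulators such as Tfeb. The median log2 fold change was −0.32 over the organelle breakdown genes, where 7 of 10 were lower, and 0.01 over the lysosomal genes, beside 0.01 and 47.2% lower over all genes. In compound KO against control, the genes past the rule were 1 of 5 ATG8 genes (Map1lc3b, which turned positive with the opposed entry added), 2 of 8 cargo receptors (Optn and Ncoa4), 1 of 12 fusion genes (Stx17) and 1 of 10 organelle breakdown genes (Dnase2b), against 1.53% of all genes lower. Without compound KO replicate 1, Map1lc3b, Optn and Ncoa4 still passed and Stx17 and Dnase2b did not, against 1.08% of all genes lower. In that fit 1 of the 12 fusion genes passed, Vps16. It was at 6.9, 6.9 and 6.4 in control, 6.3, 2.7 and 2.3 in compound KO and 8.8, 5.8 and 6.4 in double KO. The organelle breakdown genes had a median of −0.36 with 9 of 10 lower, beside 0.02 and 48.0% over all genes, and without that library −0.34 with 7 of 10 lower, beside 0.01 and 47.8%. The summed fiber markers were at 38552, 97679 and 101354 in compound KO against 106644 to 124707 in control and 75857 to 114565 in double KO. Cryba1 (mean 58841 in control) and Crybb1 (36378) made up most of this sum (mean 114443), and Dnase2b is in both lists. Among the fiber markers in the table, Crygs alone had a higher mean in compound KO than in control (1105.87 against 1026.9). The summed normalized CPM of 10 macrophage markers was 14.6 to 19.2 in control, 32.2 to 40.3 in compound KO and 12.4 to 22.1 in double KO. Erythroid markers (9 genes) summed to 1172 to 1641 in control, 1427 to 2841 in compound KO and 2341 to 3883 in double KO, and skeletal muscle markers (9 genes) to 6.5 to 8.8, 20.2 to 294.1 and 26.9 to 72.2, so that both were higher in every double KO than in any control library. Tnni1 made up most of the control muscle sum (mean 5.37 of 7.43) and did not rise with it. It was at 5.8, 6.9 and 3.4 in control, 4.0, 5.5 and 4.6 in compound KO and 3.6, 6.3 and 7.1 in double KO. The part of these cell types in the values was not tested.

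Cdk1 was at 24.8, 20 and 23.5 in control, 27.8, 11 and 27.4 in compound KO and 10.7, 9.3 and 8.3 in double KO. The double KO was below all other libraries, by a log2 fold change of −1.19 against control (SE 0.127, adjusted p 0.0375 by limma). The call ended when any 1 of the 6 libraries was left out. In those fits the log2 fold change stayed between −1.275 and −1.109, with an unadjusted p of at most 0.000905 by limma. Over all alternatives the adjusted p ran from 0.0364 to 0.535. The paper also reported reduced Cdk1 in double KO lenses by RT-qPCR. Wdfy3 (Alfy), a scaffold for the autophagy of protein aggregates, was at 18.9, 3.3 and 23.5 in control, 18.4, 3.0 and 19.5 in compound KO and 0.2, 2.4 and 0.4 in double KO. Its log2 fold change was −2.84 (SE 0.777, adjusted p 0.318), and replicate 2 of both other groups was near the double KO values. Alox15, a lipoxygenase that permeabilizes organelle membranes, was at 3.8, 3.2 and 9.0 in control, 0.0, 0.0 and 4.8 in compound KO and listed at 0 in all double KO libraries (adjusted p 0.0751). It passed the adjusted test with a pseudocount of 0.1 (adjusted p 0.0136) and without control replicate 3 (0.02), and over all alternatives its adjusted p ran from 0.0136 to 0.496. No fold is given for it, since its double KO level is at 0 without counts.

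Optn, the optineurin receptor for damaged mitochondria and ubiquitin-tagged cargo, was below the controls in every knockout library. It was at 54.8, 69.6 and 54.0 in control, 21.5, 36.7 and 35.3 in compound KO and 35.5, 38.5 and 40.3 in double KO. The log2 fold change was −0.62 in double KO (SE 0.115, adjusted p 0.178) and −0.94 in compound KO (SE 0.232, adjusted p 0.481) against control, and neither passed the adjusted test by limma. Between compound KO and control, 0 of 93 passed the adjusted test, and 4 passed at an unadjusted p and 1.5-fold, all lower (Optn, Ncoa4, Stx17 and Dnase2b), against 1.53% lower and 3.81% higher over all genes. Ncoa4, the ferritin receptor, was at 27.0, 47.3 and 47.7 in control, 25.1, 19.0 and 23.6 in compound KO and 46.5, 39.2 and 28.4 in double KO, and every compound KO library was below every control. Without compound KO replicate 1, the compound KO log2 fold change against control was −0.70 for Optn and −0.86 for Ncoa4.

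Stx17, which fuses autophagosomes with lysosomes, was at 30.5, 17.8 and 22.2 in control, 12.2, 15.8 and 15.4 in compound KO and 24.2, 26.9 and 17.5 in double KO. Its compound KO libraries were below all others. The log2 fold change against control was −0.64, but −0.53 (unadjusted p 0.0783) without compound KO replicate 1, −0.40 with library size scaling and −0.64 with an unadjusted p of 0.0720 with the replicate block, none of which passed. Dnase2b, the nuclease that degrades DNA of fiber cell nuclei, was at 75.6, 78.8 and 68.6 in control, 22.6, 55.1 and 51.4 in compound KO and 50, 58.3 and 67.8 in double KO. Its log2 fold change of −0.87 in compound KO became −0.47 without replicate 1 of that group and no longer reached 1.5-fold. Between double KO and compound KO, 92 of the 93 genes were tested and 0 passed the adjusted test by limma, while at an unadjusted p and 1.5-fold Ncoa4 (log2 fold change 0.71) and Stx17 (0.61) were higher and Wdfy3 (−2.71) and Cdk1 (−1.04) lower in the double KO, each with an adjusted p of 0.665. The backgrounds there were 0.854% higher and 2.20% lower. Without compound KO replicate 1, Stx17 (0.50, unadjusted p 0.0550) and Cdk1 (−0.83, unadjusted p 0.0934) no longer passed, while Ncoa4 (0.79) and Wdfy3 (−2.34) did. The fusion gene Vps16 also passed in that fit, higher in the double KO. The Cdk1 call there also ended when compound KO replicate 3 or any 1 double KO library was left out.

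**Figure D4:**
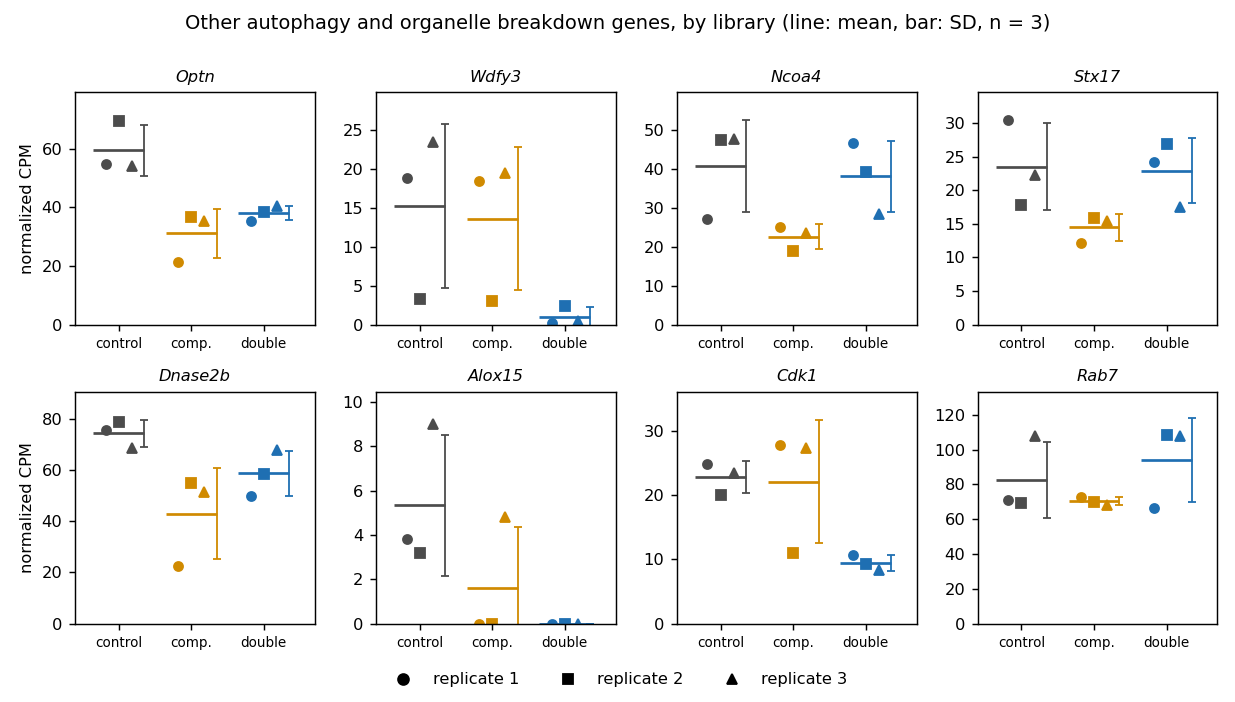
Normalized CPM (vertical axes, from 0) by library for 7 pathway genes that passed the unadjusted rule in at least 1 comparison and for Rab7, with the group mean (line) and SD (bar, n = 3, ending at the axis where it would pass below 0). Cdk1 is at 8.3 to 10.7 in double KO libraries, below all others, and Rab7 is at 107.5 to 108.6 in 3 libraries against 66.4 to 72.9 in the other 6.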

How the data were processed

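Lens RNA from 9 libraries, 3 each of control, compound KO and double KO, was sequenced by the authors as strand-specific paired-end reads. Per the paper's methods and the submitters' processing notes, reads were trimmed (Trimmomatic), aligned to mm39 with HISAT2 and assembled with StringTie for transcript-level counts, edgeR was used, and entries of low CPM were removed. Cufflinks is also named, with no role given. Tool versions and handling of multi-mapped reads are not given in the sources used here. The deposited values are a signal normalized by the authors, read as CPM times 1 factor per library, rounded to 1 decimal, since library totals are unequal while their geometric mean is close to the CPM total. Read depth is unknown, and precision therefore rests on the spread between libraries, with no counting error. Since the values are not counts, the count test planned for raw counts was not run.

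Values were fitted here with limma 3.58.1 (R 4.3.3) on log2(value + 1) and a trend on intensity. Each pair of groups was fitted alone, using entries that have a symbol and reach 1 normalized CPM in 2 or more of the 6 libraries. Tests were two-sided, p-values were adjusted by Benjamini-Hochberg over all entries tested, and the procedure was tested on simulated data. The members and lists were chosen with earlier results of these data known. All 10 genes are named, with other listed genes past the adjusted or unadjusted rule in any comparison and, for Sqstm1 and Bnip3l, the 3 entries most alike. Rab7, Gabarapl2, Vps16 and the entries without a symbol were chosen after their values were seen. Positions are from GENCODE release M39 on GRCm39. No column was left out.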

Additional observations from a re-analysis of the deposited data

Results flagged for a closer look

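Entries that carry no symbol were outside the tests, and for 3 genes the entry most opposed to the gene over the 9 libraries was higher in every library of a knockout group than in any control library. For Map1lc3b, that entry averaged 46.1 normalized CPM in compound KO libraries and was at 0.0 in the controls. For Gabarapl1, it averaged 1.23 in double KO libraries against 0.700 in controls. For Bnip3l, it averaged 1.53 in compound KO libraries against 0.667 in controls. These entries were searched by their opposite course among 6193, so that an opposite entry exists for each gene by construction.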

How the results depend on the processing

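No gene of the 10 reached an adjusted p of 0.05 in any of the 480 fits, over all settings and comparisons, where the lowest adjusted p was 0.0788. Of 450 alternative values, 424 kept their direction and their side of the threshold and 26 changed sign.

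Between double KO and control, the 10 genes gave 0 at an unadjusted p and 1.5-fold, and 1 in one fit of all 9 libraries, with the replicate block and with no fold threshold, and 0 to 1 when a library was left out (Map1lc3b, without double KO replicate 2). Pathway genes called at an adjusted p went from 1 to 0 with library size scaling, one fit of all 9 libraries and the replicate block and to 2 (Cdk1 and Alox15) with a pseudocount of 0.1 (0 to 1 on leaving out a library; Alox15 alone without control replicate 3). At an unadjusted p they went from 4 to 2 when at least 1 was required in each library and to 14 with no fold threshold (3 to 7 on leaving out a library; 7 without double KO replicate 2). Between compound KO and control, they went from 4 to 2 with library size scaling, and to 8 in one fit of all 9 libraries and with no fold threshold (1 to 6 on leaving out a library; 1 without control replicate 3, 2 without control replicate 2). The 10 genes gave 1, or 0 with the opposite entries added (chosen after seeing the data), and 1 to 2 on leaving out a library (Becn1 joined without compound KO replicate 2). Single unadjusted calls also ended for Optn in double KO against control (library size scaling, without control replicate 2 or double KO replicate 1), for Ncoa4 (library size scaling, without control replicate 2 or 3 or compound KO replicate 2), Stx17 (also without control replicate 1 or 3 or compound KO replicate 3) and Dnase2b (upper quartile scaling, replicate block, without any 1 control) in compound KO against control, and for Ncoa4 (library size scaling, without compound KO replicate 2 or double KO replicate 1) and Stx17 (library size scaling, without double KO replicate 1 or 2) in double KO against compound KO. The median of the 10 genes moved from −0.17 to 0.0892 with library size scaling and to 0.12 with the entries added, and ran from −0.26 to 0.0034 on leaving out a library. Between double KO and compound KO, pathway genes went from 4 to 2 with library size scaling (2 to 4 on leaving out a library, 2 without double KO replicate 1 or 2) and the 10 genes gave 0 to 1, with Atg7 passing without double KO replicate 1 at a log2 fold change of 2.47.

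Library size scaling shifted the median of all genes by 0.23 in compound KO against control and by −0.17 in double KO against compound KO. With it, log2 fold changes turned to 0.0175 for Map1lc3a (double KO against control) and to −0.0608 for Gabarap, −0.0586 for Gabarapl1 and −0.17 for Sqstm1 (double KO against compound KO). Upper quartile scaling gave −0.00047 for Gabarap in compound KO against control. With the opposite entry added, Map1lc3b became 0.14, 0.34 and −0.20 (double KO against control, compound KO against control, double KO against compound KO) and Atg7 0.106 and −0.0623 in the comparisons with compound KO. On leaving out a library, signs changed in double KO against control for Map1lc3a (−0.156 to 0.047), Bnip3l (−0.0187 to 0.0867) and Atg5 (−0.00671 to 0.146), in compound KO against control for Gabarap (−0.0583 to 0.129) and Atg7 (−1.24 to 0.0302), and in double KO against compound KO for Gabarapl1 (−0.0771 to 0.253), Pik3c3 (−0.0562 to 0.0269), Becn1 (−0.0463 to 0.468), Atg5 (−0.124 to 0.0156) and Sqstm1 (−0.136 to 0.123). The cause was not tested.

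After group means were removed, libraries of the same replicate number correlated by −0.106 to 0.216, and those of different numbers by −0.223 to 0.189. These ranges overlap, so the values cannot decide whether libraries of the same number belong together. edgeR and DESeq2 were not run as alternatives, since the values are normalized. With 3 libraries per group, unknown depth limits the precision.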

Other observations

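The 2-level course of Map1lc3b and Atg7 was also seen in other autophagy genes, in other libraries, all chosen after their values were seen. Tollip, an adaptor for ubiquitin-tagged cargo, was at 1.2, 1.6 and 47.1 normalized CPM in control, 47.5, 49.4 and 1.9 in compound KO and 1.6, 43.1 and 43.2 in double KO. Atg16l1, the partner of Atg5, was at 4.1, 4.1 and 18.2 in control, 3.8, 19.4 and 20.9 in compound KO and 4.3, 19.9 and 4.7 in double KO. Each of the 3 genotypes held libraries of both levels for both genes.

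Tdrd7, an RNA granule protein needed in the lens, was at 1598.9 in control replicate 1 and at 1791.7 in double KO replicate 2, and at 575.9 to 732.7 in the other 7 libraries. Tax1bp1, a cargo receptor, was at 38.7 in control replicate 1 and 39.2 in double KO replicate 1 and at 98.9 to 117.1 in the others. Nudcd3, a gene outside the pathway lists, followed Map1lc3b, with 69.0, 79.3 and 77.5 in control, 41.1, 38.7 and 43.7 in compound KO and 39.5, 69.9 and 38.2 in double KO. What sets these levels was not tested.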
